A study of Mus musculus with 12 samples.

Results

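Some cytosines listed as 5-methylcytosine (m5C) positions in mouse tissue RNA lay within 10 nt of another listed cytosine, and these clustered sites are described here. They are all rows of the authors' table that had another row at most 10 nt away on the same chromosome and strand, with the mitochondrial genome and chromosome Y left out. There were 303 of them among the 2498 listed positions, or 12.2% of the 2481 rows off those 2 chromosomes. Chained together they formed 121 runs in 118 genes, and the other 2178 rows are called sites not clustered below.

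m5C is a cytosine that carries a methyl group on its ring, and in mammalian RNA it is placed by enzymes of the NSUN family and by the tRNA methyltransferase TRDMT1. In transfer and ribosomal RNA it is known for its effects on stability and translation, and on mRNA the enzymes NSUN2 and NSUN6 are known writers with different sequence contexts. Bisulfite turns unmodified cytosine into uracil, which is read as T, while m5C stays C. Cytosines in RNA that remains folded during the treatment can stay unconverted too, and neighbouring cytosines are then read as C together. The measured quantity below is the level, the percentage of reads at a position that kept C, and whether a level came from m5C or from other unconverted cytosine was not tested.

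The libraries were made from polyadenylated RNA of wild-type C57BL/6 mice aged 8 to 10 weeks, 12 libraries in all from 6 tissues, with no treatment and no altered allele. Muscle had 4 female libraries, heart and liver 1 female library each, and lung, small intestine and spleen 1 female and 1 male library each. The table has 1 column set per tissue, so no level carries an error between animals and each interval or p-value below covers the counting of reads alone. Where a tissue with female libraries alone is set beside lung, small intestine or spleen, tissue and the mix of sexes cannot be told apart. No source used here says whether an animal gave more than 1 library.

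Coverage at the clustered sites with 20 or more reads summed to 287548 reads in heart, 155527 in muscle, 177334 in small intestine, 120265 in liver, 24818 in spleen and 18396 in lung. The median per covered site was 123 to 149 reads in heart, muscle, liver and small intestine, 136.5 in lung and 74 in spleen. Few tissue-defining genes had listed sites. They followed the labels for muscle, where Myh1, Myh4 and Ryr1 together had 1544249 reads and heart none, for liver, where Alb had 1177520 reads, and for small intestine, where Lyz1 had 10467. None of the 7 heart and 6 spleen genes looked up was listed, and Abca3 of lung type II cells had 981 reads in lung and 1001 in liver, so those 3 labels could not be checked this way.

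The sequence around 10 runs could be read, because they lay inside the RefSeq promoter windows of GRCm38.p6, which run from 250 bases before to 50 after an annotated gene start. Those printed are examples and do not stand for all 121 runs. Ppm1m and Rps19 are blocks of adjacent cytosines, and the others have listed cytosines spread over a G-rich stretch. Each line gives 30 bases, 5′ to 3′ on the transcribed strand, and capitals mark the listed cytosines.
Ppm1m, chr9:106199097-106199126, minus strand: ggccgcgctccagCCCggtgccctatcacc
Rps19, chr7:24884712-24884741, plus strand: ccgggctttctggCCCCaagagctcgtgcc
Dcun1d3, chr7:119895679-119895708, minus strand: gaggaggaggCggCggCCgCggtggcagaa
Mettl13, chr1:162548433-162548462, minus strand: aacaaggggggCggCagCggcgcgtggcca
Pomgnt1, chr4:116150531-116150560, plus strand: gaggcggaggCcgcggaggCcgcggcgcgc
Ube2e2, chr14:18893634-18893663, minus strand: gcggcggCtcgcggaggCggcggtttcact

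In 7 of the 10 runs every cytosine from the first to the last listed position was itself listed, which cannot be otherwise in a block of adjacent ones. Dcun1d3 had 5 listed of 5 in a span of 10 nt with other bases between them. In Pomgnt1 and Ube2e2 2 of 4 cytosines were listed. The 2 listed cytosines of Pomgnt1, 9 nt apart, had the same 7 bases around them. All 29 clustered sites in these windows, and all 68 sites not clustered that lay in such windows, were a cytosine on the listed strand. Of the 29 clustered ones 7 lay downstream of the annotated start and the others before it. Of the 68 sites not clustered 41 lay at the start or downstream of it.

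The letters CNGGG, with the listed cytosine first and on the transcribed strand alone, stood at 3 of the 29 clustered sites (10.3%) and at 9 of the 68 sites not clustered (13.2%), while 79.9% of all 32851 promoter windows hold them somewhere. The letters CTCCA, with the listed cytosine at the 3rd or 4th position, stood at none of either set, and 39.7% of all windows hold them somewhere. The median content of G and C in the surrounding 30 bases was 80% for clustered sites and 70% for sites not clustered. These are descriptions of the few sites inside promoter windows, and the remaining runs were not read.

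Runs were short, and 1 nt was the most frequent distance between neighbours. Of the 121 runs, 74 had 2 sites, 35 had 3, 10 had 4 and 2 had 5. The longest spanned 19 nt and the median span was 5 nt. Of the 182 distances between neighbours, 81 were 1 nt, and 41 runs had no gap at all, among them runs of 4 adjacent cytosines in the kinase gene Cdc42bpb, the polycystin gene Pkd1 and the ribosomal protein gene Rps19. Among the 101 neighbours 2 to 10 nt apart, 52 lay at 3, 6 or 9 nt and 49 at the other distances. The runs of 5 were in Dcun1d3, a cofactor of neddylation, and Esd, an esterase. Mknk2, Tm9sf3 and Zfp503 had 2 runs each.

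**Figure D1:**
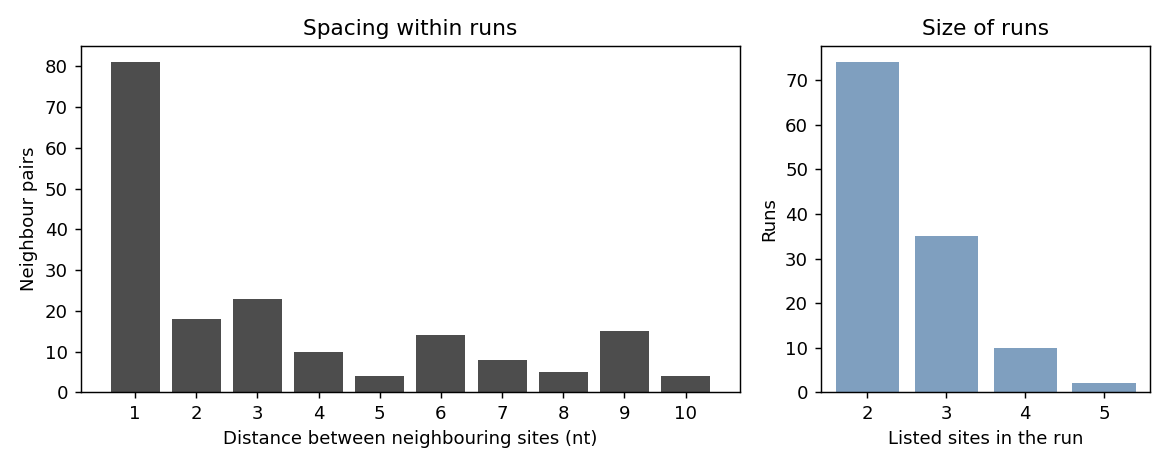
Left, the number of neighbour pairs (y axis) at each distance in nt (x axis) within the 121 runs; right, the number of runs (y axis) by listed sites in the run (x axis). Distances of 1 nt lead with 81 pairs, and 3, 6 and 9 nt stand above the distances on either side, with 23, 14 and 15 pairs.

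The rule ends at 10 nt. Neighbours 9 or 10 nt apart, 17 pairs with both sites covered, had a median absolute difference in level of 2.16 points within a tissue, and the 11 pairs 11 or 12 nt apart, just outside the rule, had 2.92 points.

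Runs lay near the 5′ ends of genes more often than other listed sites did. Where the gene was protein-coding and at least 10 kb long, 89 of 217 clustered sites (41.0%) were within 1 kb of the 5′ end of the RefSeq gene, against 232 of 1592 sites not clustered (14.6%). Within 1 kb of the 3′ end were 12.9% and 17.3%. Counted as runs, which share a position, 32 lay at the 5′ end, 12 at the 3′ end and 42 elsewhere. Of the 303 sites, 295 had a gene name in RefSeq and 282 of these were protein-coding. Exon, intron and UTR were not assigned, since no transcript models were used here. The share of listed sites that were clustered ran from 5.91% on chromosome 11 to 30.7% on chromosome 14 and 22.7% on chromosome 17.

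Coverage decided how many runs could be followed across tissues. All members of a run had 20 or more reads in all 6 tissues for 27 runs and in at least 1 tissue for 98. The other 23 runs, among them those of Mmp24, a membrane metalloproteinase, and Dlx6, a homeobox factor of the developing face and limb, each with 4 sites, were at that coverage in full in no tissue. Of single sites, 54 clustered sites (17.8%) reached 20 reads nowhere and 64 (21.1%) did so everywhere, against 13.2% and 33.8% of the sites not clustered.

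Levels of clustered sites differed from those of other listed sites in a way that depended on the tissue. Their median was 10.7% in heart and 7.54% in muscle, with 10.6% in liver and 7.59% in small intestine, while lung and spleen had 0%. Sites not clustered had medians of 11.1% in heart and 12.1% in muscle, with 5.58% in liver, 3.55% in small intestine, while lung had 2.03% and spleen 1.40%. Clustered sites thus lay lower in muscle, lung and spleen, higher in liver and small intestine, and near the others in heart. The quartiles of the clustered levels ran from 6.32% to 15.7% in heart and from 6.43% to 15.5% in liver. The 2 sets are not matched in gene or coverage, and these medians carry no test.

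At 10% or more were 124 of 225 covered clustered sites in heart (58% of all listed sites reach it there), 67 of 167 in muscle (61.4% of all), then 95 of 175 in liver (36.4%) and 64 of 169 in small intestine (23.6%), with 10 of 92 for lung (13.5%) and 8 of 88 for spleen (12%). A level of 30% or more was reached by 19 clustered sites of heart (8.44%, against 9.77% of all covered sites), 8 of muscle (4.79% against 11.5%), 14 of liver (8% against 6.36%) and 14 of small intestine (8.28% against 4.58%). None reached it in lung or spleen, where 1.52% and 1.71% of all did. The highest single levels were 87.2% in liver in the pseudogene Mup-ps21 and 78.3% of 23 reads in heart in Hdlbp, a lipoprotein and RNA-binding protein. Mup-ps21 belongs to the major urinary protein family, whose near-identical copies can share reads, so its levels are uncertain.

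Many clustered sites had no unconverted read at all in lung and spleen. In lung 58 of 92 covered clustered sites (63.0%) had 0 unconverted reads, against 31.2% of sites not clustered and 33.7% of all. In spleen 53 of 88 (60.2%) had none, against 37.4% of sites not clustered and 39.4% of all. Heart had 5.78% and muscle 14.4%, against 4.37% and 5.82% of all sites. Liver had 4.57% and small intestine 7.10%, against 8.57% and 13.2% of all. The clustered share was thus above that of all sites in lung, spleen, muscle and, by little, heart, and below it in liver and small intestine.

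The median coverage of clustered sites and of the others was 136.5 and 84.5 reads in lung and 74 and 77.5 in spleen. At 50 or more reads the lung share was 59.7% of 72 clustered sites and 22.9% of 750 others, and the spleen share 50.9% of 53 and 29.5% of 606. At the 64 clustered and 736 other sites covered in all 6 tissues, median coverage in lung was 162 and 123 reads, and in spleen 105.5 and 99. Of these, 32 clustered sites (50%) had 0 unconverted reads in both lung and spleen, against 131 others (17.8%). The 32 sites belonged to 15 of 27 runs, and 30 of them reached 5% in heart, muscle, liver or small intestine. So did 106 of the 131 others. The libraries of lung and spleen also had the lowest summed coverage, and the part of library, batch or RNA quality in these values was not tested.

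**Figure D2:**
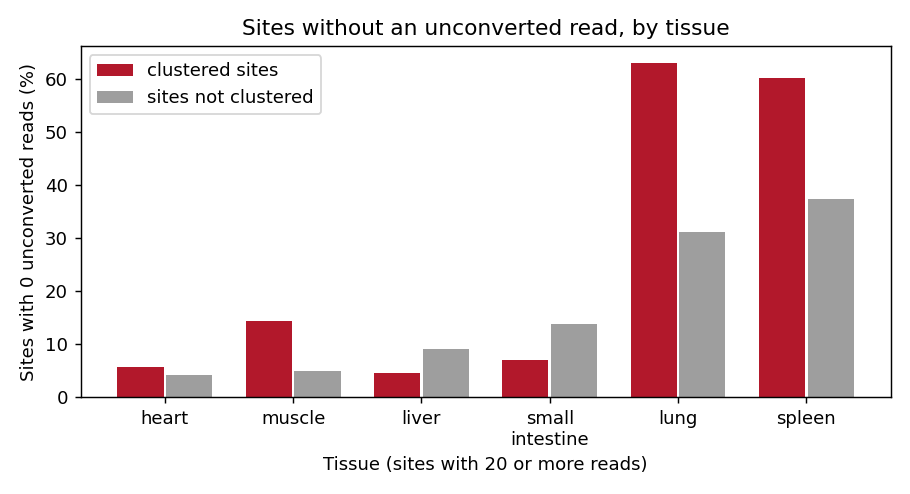
The percentage of sites with 0 unconverted reads (y axis) among sites with 20 or more reads in each tissue (x axis), for clustered sites and for sites not clustered. Clustered sites reach 63.0% in lung and 60.2% in spleen, above the 31.2% and 37.4% of the others, and in liver and small intestine they lie below them.

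The runs fell along a range from sites with alike levels to sites with unequal ones, and the alike ones are described first. Ppp6r1, a regulatory subunit of protein phosphatase 6 on chromosome 7, had 3 adjacent sites at 4640176, 4640175 and 4640174, in 5′ to 3′ order. Their levels were 8.78%, 8.37% and 7.71% in heart, 13%, 12.5% and 12% in muscle, 8.34%, 7.88% and 7.15% in liver and 6.82%, 6.64% and 5.89% in small intestine. In lung they were 0.558%, 0% and 0% of 538 to 563 reads and in spleen 0% of 588 to 642. The 3 sites lay close to each other in each tissue, while the tissues ranged from no unconverted read in spleen to the muscle levels.

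Btbd2, a BTB domain gene on chromosome 10, had 4 sites at 80656285, 80656284, 80656283 and 80656279. In the same order they stood at 10.8%, 11.3%, 11.1% and 8.84% in heart, at 11.6%, 11.8%, 12% and 9.74% in liver and at 13.4%, 13.1%, 12.4% and 10.4% in small intestine. All 4 were at 0% in lung (164 to 185 reads), spleen (71 to 76) and muscle (36 to 40), where the 95% Wilson interval reaches 2.29%, 5.13% and 9.64%. Muscle thus had no unconverted read at these sites, as in lung and spleen, but at low coverage. Its Fisher's exact adjusted p over the 4 sites ran from 0.046 to 0.099 against heart. Against liver it ran from 0.033 to 0.052.

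Levels at or near 0% in lung and spleen recurred in other runs, while the order of the other 4 tissues differed between runs. Mknk2, a kinase that phosphorylates the cap-binding factor eIF4E, had 3 adjacent sites from 80675884 to 80675886 on chromosome 10, with 5.98% to 6.64% in heart, 6.29% to 7.54% in muscle, 6.54% to 7.17% in liver and 8.35% to 10.1% in small intestine. No unconverted read was seen there among 359 to 374 reads in lung or 233 to 246 in spleen. A second Mknk2 run, at 80676168 and 80676177, did have unconverted reads in lung, 2.92% and 8.97%, and in spleen, 1.54% and 3.12%.

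Tapbp, the peptide-loading chaperone tapasin, had sites at 33928691 and 33928697 on chromosome 17 with 9.60% and 7.62% in heart, 13.9% and 11.9% in muscle, 10.1% and 8.39% in liver and 9.07% and 6.94% in small intestine. Lung had 0% of 570 and of 643 reads, and spleen 0.141% of 708 and 0% of 748. Tbcc, a cofactor of tubulin folding, had higher levels of the same pattern at sites 10 nt apart, 28.3% and 27% in heart, 25.3% and 25.6% in muscle and 26.2% and 26.7% in liver, and its small intestine, lung and spleen values are in the plot of alike runs. The high and the low tissues of both genes did not overlap in level.

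Hcfc1, a coregulator of cell-cycle genes on chromosome X, had 20.4% and 17.6% in heart, 25.2% and 26.8% in muscle, 26.9% and 26.6% in liver and 12.2% and 17% in small intestine, and 0% of 35 to 70 reads in lung and spleen. Rock1, a kinase of the actin cytoskeleton, had 12.5% to 13.7% in heart, 12.8% to 14.1% in liver, 8.11% to 9.52% in small intestine and 5.80% to 7.58% in muscle at 3 adjacent sites, and 0% of 34 to 64 reads in lung and spleen. Tspan14, a tetraspanin, had 6.30% to 7.04% in heart and 0% in lung, and Ssbp4 6.20% to 6.92% in heart and 0% in lung and spleen.

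**Figure D3:**
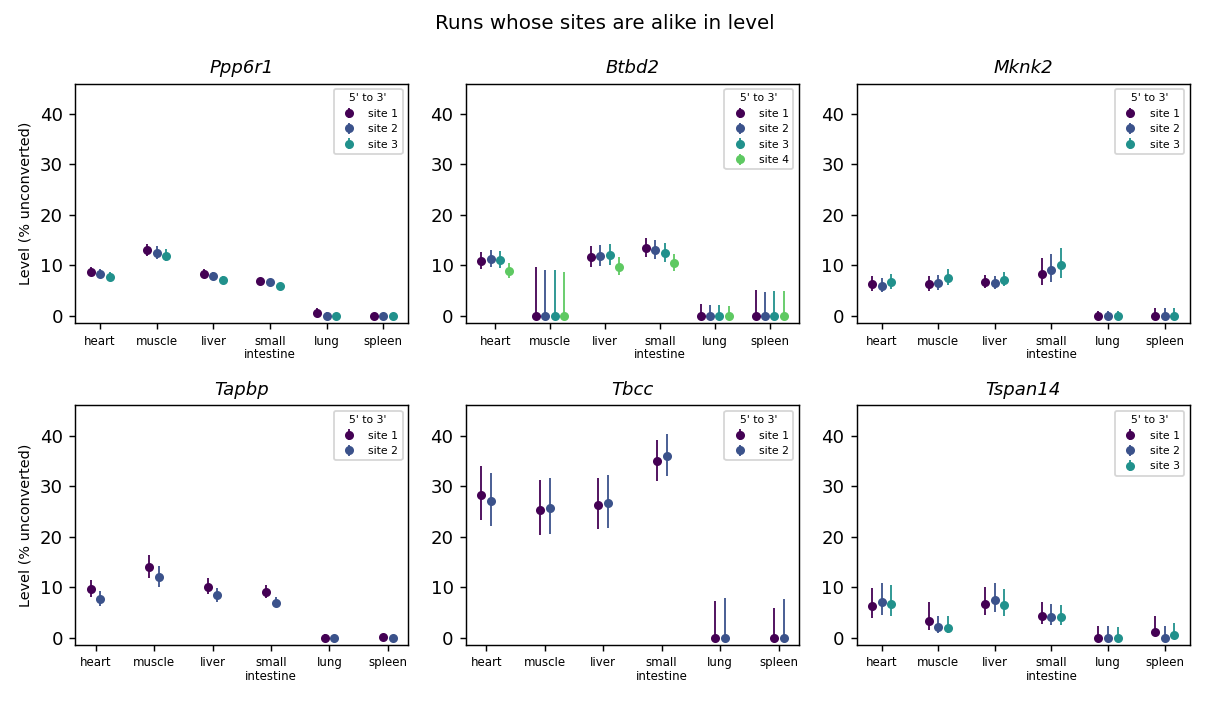
Levels in percent of unconverted reads (y axis) in the 6 tissues (x axis) at each site of 6 runs, drawn in 5′ to 3′ order, with 95% Wilson intervals that cover the counting of reads alone. Sites of a run lie close together within each tissue, and lung and spleen lie at or near 0% where heart and liver reach 6% to 28%.

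Alike levels within a run came with other tissue patterns as well. Esd on chromosome 14 had 5 sites, 4 of them adjacent from 74732344 to 74732347, with 11.4% to 13.2% in liver at these 4, 1.56% to 2.38% in heart and 0.340% to 0.694% in muscle. Cdc42bpb, a kinase acting below the GTPase Cdc42, had 4 adjacent sites with 6.10% to 6.69% in heart and 6.83% to 7.70% in liver, and 0% to 0.385% of 252 to 263 reads in small intestine. Tpm3, a tropomyosin on chromosome 3, went the other way, and its sites were less alike, up to 5.28 points apart. It had 11.5% and 16.8% in spleen, 7.46% and 12.2% in lung and 8.39% and 11.5% in small intestine. Heart had 1.10% and 2.33%, liver 1.31% and 0.478% and muscle 0.541% and 0.495% at these Tpm3 sites.

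Other runs held sites of unequal level. Afg3l1, a subunit of a mitochondrial protease, had adjacent sites on chromosome 8 at 123501322 and 123501323. The 5′ site was at 60.8% in heart and 46.1% in muscle, with 29.9% in liver, 8.66% in small intestine, while lung had 5.71% and spleen 4.48%. The 3′ site was at 15.7%, 8.65%, 3.42%, 1.56%, 0% and 0% in the same tissues. The 5′ site was thus the higher one in all 6 tissues, with Fisher's exact adjusted p = 4.8e-131 in heart, where the difference was 45.1 points.

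Such tests were run on all neighbouring listed sites of a gene at any distance, tissue by tissue, with p adjusted over all of them. They were added after the values were seen. A difference was called at an adjusted p under 0.05 and at least 10 points. The same reads can cover both sites, which the test does not take into account. Over all distances 16.8% of 1764 comparisons were called. Within 10 nt, 45 of 541 comparisons (8.32%) were called, from 17 pairs in 16 genes. At distances over 10 nt it was 251 of 1223 (20.5%). At the edge of the rule, 0 of 52 comparisons were called at 9 or 10 nt and 2 of 36 at 11 or 12 nt, both in Tbcc.

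In Pigo, an enzyme that adds ethanolamine phosphate to the GPI membrane anchor, the 3′ site was the higher one. Position 43022191 on chromosome 4, the 5′ site on the minus strand, had 11.8% in heart and 11.5% in muscle, with 7.76% in liver, 4.17% in small intestine, while lung had 9.52% and spleen 0%. Position 43022190 had 55.2%, 54.5%, 50.4%, 42.8%, 23.8% and 24.1%. The difference was called in heart, muscle, liver, small intestine and spleen (Fisher's exact adjusted p from 4.1e-15 to 0.018), and lung had 21 reads.

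Ppm1m, a protein phosphatase of the PP2C family, is the block of 3 cytosines printed above, and its middle site was the lowest. From 5′ to 3′ the levels were 18.8%, 12.4% and 34.3% in heart, 16.8%, 4.92% and 26.1% in muscle and 30.5%, 12% and 51% in liver. They were 17.2%, 5.98% and 23.1% in small intestine, 11.2%, 6.74% and 19.3% in lung and 9.42%, 8.29% and 19.4% in spleen. The order of the 3 sites was the same in all 6 tissues. The 3′ site exceeded the middle one by a called difference in each tissue, from 39.0 points in liver (Fisher's exact adjusted p = 2.9e-31) to 11.1 points in spleen (adjusted p = 0.0080).

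Klc2, a light chain of the motor kinesin, had 37.6% and 20.7% at its 5′ and 3′ site in heart and 44.1% and 21.3% in muscle. It had 15.6% and 3.20% in liver and 14.5% and 3.45% in small intestine, while lung had 9.32% and 3.07% and spleen 8.53% and 0%. Slc43a2, a transporter of neutral amino acids, had the reverse order, 15.1% and 35.2% in heart, 28.1% and 49.0% in muscle, 0.410% and 16% in liver and 3.98% and 17.3% in small intestine, while lung had 6.68% and 19% and spleen 2.51% and 8.53%. In each of these runs 1 of the adjacent cytosines was higher in every tissue, while the level of both moved between tissues.

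Adcy5, an adenylyl cyclase of the heart, had 15.7% and 36.6% at adjacent sites in heart and at most 3.23% and 8.99% in the 4 other tissues that covered it. Igf2r, the receptor that carries mannose-6-phosphate proteins and IGF2, had 31.7% and 12.3% in heart and 26.7% and 8.74% in muscle. Elsewhere its levels were lower, from 9.55% and 1.88% in lung to 0.971% and 2.78% in spleen, the one tissue in which the 3′ site had the higher value. In Adcy5 the difference was called in heart alone of the 5 covered tissues (Fisher's exact adjusted p = 4.7e-26), and in Igf2r in heart and muscle.

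**Figure D4:**
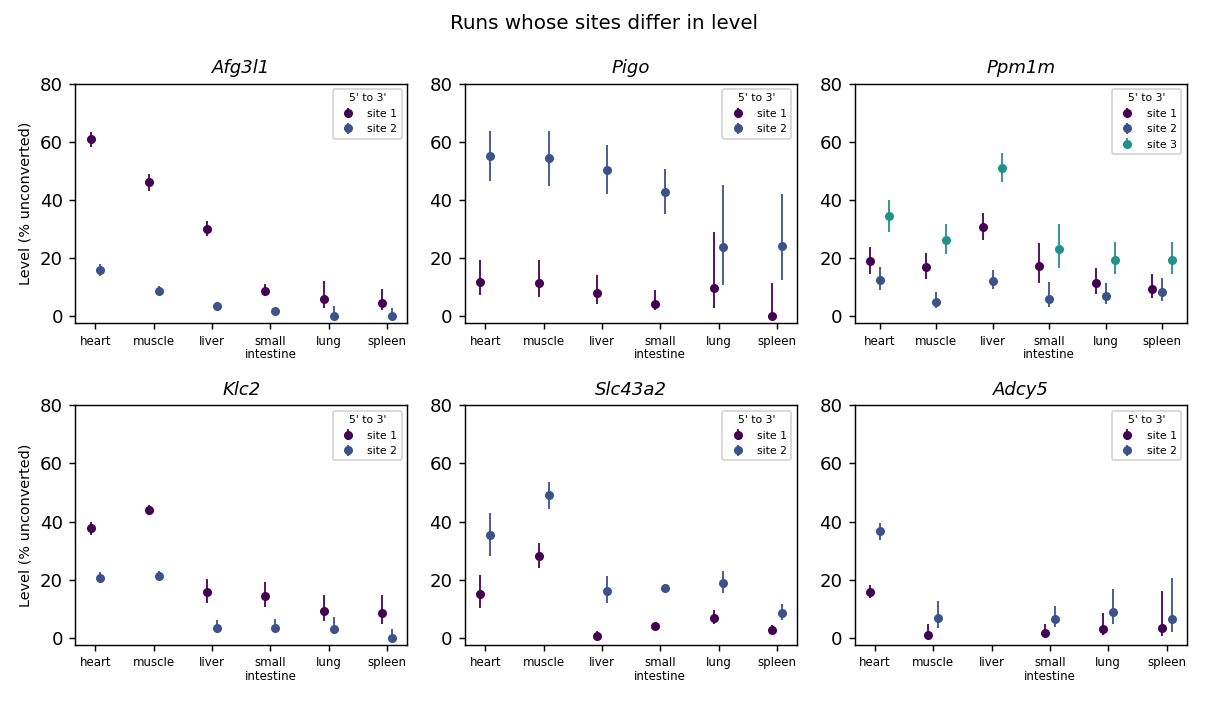
Levels in percent of unconverted reads (y axis) in the 6 tissues (x axis) at each site of 6 runs of adjacent cytosines, drawn in 5′ to 3′ order, with 95% Wilson intervals that cover the counting of reads alone. The order of the sites is the same in every covered tissue, as in Afg3l1 with 60.8% and 15.7% in heart and 4.48% and 0% in spleen.

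Cox7c, a subunit of respiratory complex IV, gave the deepest run, with 24450 to 75352 reads in heart, muscle, liver and small intestine. Its 5′ site had 11.8%, 13.6%, 6.31% and 3.82% in those tissues and its 3′ site 20.3%, 19.1%, 11.5% and 5.66%. Gm10012 on chromosome 17, annotated as a transcribed pseudogene, had 11.1%, 11.7%, 7.27% and 4.14% at its 5′ site and 19.1%, 18.4%, 10.9% and 6.79% at its 3′ site. The values of the 2 genes lay within 2 points of each other, and whether they share reads was not tested. In Rpph1, the RNA subunit of RNase P, sites 7 nt apart had 14.5% and 25.8% in heart, 15.4% and 32.4% in liver and 12.6% and 23.9% in spleen, and the 3′ site was higher in all 6 tissues. Rpp14, a protein subunit of the same enzyme, had adjacent sites at 26.4% and 29% in heart and 17.2% and 25.6% in muscle.

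Unequal pairs a few nt apart were seen in fewer tissues. Ass1, an enzyme of the urea cycle, had 28.6% of 56 reads and 66.9% of 266 reads in liver at sites 2 nt apart (Fisher's exact adjusted p = 1.2e-06). Adgrl4, an adhesion receptor of endothelial cells, had 18% of 100 reads and 59.7% of 216 reads in heart at sites 3 nt apart. Coverage of the paired positions differed more than 2-fold in both genes. Inip, a subunit of a single-stranded DNA binding complex, had 8.70% and 39.1% in heart on 46 reads each.

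In Eif4a1, the RNA helicase of the cap-binding complex, the 5′ of 2 sites 2 nt apart had 0 of 59 and the 3′ one 23.8% of 84 reads in small intestine, while liver had 24.1% and 39.5%. Tcirg1, a subunit of the vacuolar proton pump, had 0% of 62 reads at 3896401 and 17% of 581 at 3896395 in heart. In liver it had 0% of 221 and 17.2% of 916. Its coverage fell together with the level at that position there, while in lung and spleen, with 597 to 1204 reads, all 3 sites lay at 0% to 0.341%.

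Levels stepped down along the run of Ppp2r2d in each of the 3 tissues that covered it, and along that of Dcun1d3 in liver. Ppp2r2d, a regulatory subunit of protein phosphatase 2A, has sites at 138846424, 138846433 and 138846442 on chromosome 7. From 5′ to 3′ they had 34.7%, 26% and 19.9% in heart, 37.5%, 28.6% and 17.5% in liver and 40.2%, 33.6% and 25.2% in small intestine. In heart the coverage rose along the same sites from 147 to 177 to 201 reads. No step of this run was a called difference in any tissue. A further listed site 12 nt upstream, outside the run, had 35.6% in heart, 28% of 25 reads in liver and 50% in small intestine. In liver it thus lay below the first site of the run. Dcun1d3 had 41.7%, 31.1%, 29.9%, 20.8% and 11.3% in liver from 5′ to 3′ over the 5 cytosines printed above, on 36, 61, 67, 72 and 71 reads. In heart it had 15%, 14%, 15.4%, 11.3% and 0%, and in small intestine 19.4%, 16.2%, 14.6%, 14.6% and 0%, so there the last step, to the 3′ site, was the largest. That step alone was a called difference, in heart and small intestine, and no step of Dcun1d3 was called in liver.

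In Ppp2r2d, and in Dcun1d3 in liver, the 5′ site was the least covered and had the highest level. Over all neighbours 2 to 10 nt apart whose coverage differed by at least 1.2-fold and whose levels differed, the less covered site had the higher level in 36 of 58 comparisons. Among the 279 comparisons 1 nt apart, 5 had such a difference in coverage.

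The farther apart neighbours lay, the more their levels differed at the median. At 1 nt the median absolute difference within a tissue was 0.807 points over 279 comparisons of 71 pairs, at 2 nt 0.833 over 46, at 3 to 5 nt 1.18 over 75 and at 6 to 10 nt 1.98 over 141. Listed neighbours of a gene 11 to 100 nt apart differed by a median of 3.67 points over 183 comparisons and those over 100 nt apart by 4.06 over 1040. Within 2 points of each other were 69.2% of comparisons at 1 nt, 65.2% at 2 nt, 69.3% at 3 to 5 nt, 51.8% at 6 to 10 nt, 30.6% at 11 to 100 nt and 34.6% over 100 nt, which is no steady fall. Neighbouring sites can share reads, the more so the closer they lie, and these values carry no test.

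Called differences did not rise steadily with distance. They made up 10.4% of comparisons at 1 nt, 10.9% at 2 nt, 1.33% at 3 to 5 nt and 7.09% at 6 to 10 nt. Across comparisons, the levels of the 5′ and 3′ site had a Pearson r of 0.560 at 1 nt (n = 279), 0.871 at 2 to 10 nt (n = 262) and 0.334 at over 10 nt (n = 1223). The points share genes, tissues and reads, so these are descriptions. The lower r at 1 nt goes with the unequal adjacent pairs described above, of which Ppm1m, Pigo, Slc43a2, Klc2 and Afg3l1 gave most called comparisons.

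**Figure D5:**
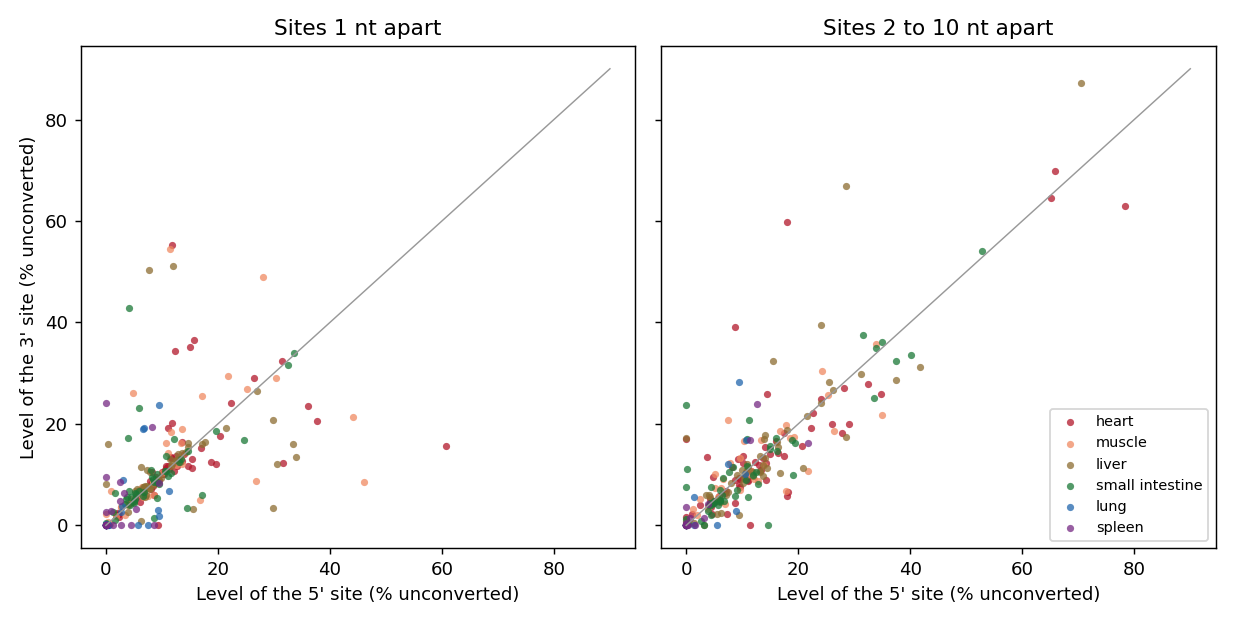
The level of the 3′ site (y axis) against that of the 5′ site (x axis), in percent of unconverted reads, for neighbouring sites 1 nt apart (left) and 2 to 10 nt apart (right), 1 point per pair and tissue with 20 or more reads at both. Most points lie near the line of equal levels, and the left panel has more points far from it, the farthest at 60.8% and 15.7%.

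Of the 99 neighbour pairs covered in 3 or more tissues, 40 never differed by more than 2 points and 66 never by more than 5. The same site was the higher one in every covered tissue in 23 of the 99. Among the 17 pairs with a called difference, 13 were covered in 3 or more tissues and 9 of these 13 had the same site higher throughout. Those pairs were picked by a difference in these same tissues, so their share cannot be set beside the 23 of 99. The 5′ site had the higher mean level in 6 of the 17 and the 3′ site in 11. By tissue, 13 of 135 pairs were called in heart, 10 of 104 in liver, 8 of 96 in muscle, 8 of 99 in small intestine, 3 of 55 in lung and 3 of 52 in spleen.

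Each pair of the 4 deeper tissues was then compared at every listed site with 20 or more reads in both, with Fisher's exact test, two-sided, and Benjamini-Hochberg adjustment over all those sites. Muscle and small intestine differed at 40% of all listed sites, 37.8% higher in muscle and 2.17% lower. Of 123 clustered sites 15 were higher in muscle and 11 lower, from 16 of the 55 runs tested. At the 83 clustered sites that the authors called in another tissue, 14 were higher and 5 lower. Calls in either direction made up 22.9% of these, against 40.7% of all sites chosen in the same way. The median difference, muscle minus small intestine, was -0.238 points at clustered sites and 8.50 points at sites not clustered.

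Clustered sites were called in both directions here. Higher in muscle were both sites of Slc43a2 and of Klc2 and the 3 sites of Eml3, a microtubule-binding protein, which had 24.2%, 30.4% and 29% in muscle and 7.69%, 10.6% and 10.8% in small intestine. Lower in muscle were the 4 sites of Btbd2, 3 sites of Tm9sf3, a membrane protein of the secretory pathway, and both sites of Caprin1, an RNA-binding protein of stress granules. The Btbd2 sites had 36 to 40 reads in muscle. The Tm9sf3 sites from 41214817 to 41214820 on chromosome 19 had 4.55% to 7.35% in muscle, 33.6% to 34.9% in small intestine, 22.3% to 24.9% in heart, 14.7% to 16.5% in liver and 0% of 35 or 36 reads in spleen. Caprin1 had 1.82% and 1.79% in muscle and 19.7% and 18.5% in small intestine.

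Muscle against liver gave 22 calls among 123 clustered sites, 10 higher and 12 lower in muscle, where 27.4% of all sites were higher and 3.32% lower. At the 57 clustered sites that the authors called in another tissue, 9 were higher and 5 lower. Together these were 24.6% of them, against 33.0% of all sites chosen in the same way, whose directions were not counted. Slc43a2, Klc2 and Rpp14 were higher in muscle at each site, and the 5 Esd sites were lower, with Fisher's exact adjusted p from 1.3e-11 to 6.5e-09. Heart against liver gave 18 higher and 12 lower in heart of 160, against 19.6% and 2.61% of all. Both sites of Rpp14 and of Afg3l1 were higher in heart, and the 3 Eml3 sites were lower, at 5.45% to 5.88% against 19.2% to 21.6%. Heart against small intestine gave 17 higher and 3 lower of 158, against 27.8% and 1.52% of all.

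Higher in heart than in small intestine at each site were Afg3l1, Adcy5 and Igf2r, and lower were both Caprin1 sites. Liver against small intestine gave 13 higher and 8 lower in liver of 149, against 8.18% and 2.25% of all. At the 68 clustered sites that the authors called in another tissue, 5 were higher and 6 lower. Together these were 16.2% of them, against 9.49% of all sites chosen in the same way, whose directions were not counted. Cacna1a, a calcium channel subunit, had 15.4% to 17.6% in liver and 0.885% to 2.61% in small intestine at its 3 sites. The 2 runs of Tm9sf3 went opposite ways in this comparison, with 15.5% and 14.7% against 0% and 0% at 41214228 and 41214229 and lower levels in liver at the run above. Muscle against heart gave 5 higher and 15 lower of 159, against 10.1% and 5.34% of all. At the 65 clustered sites that the authors called in another tissue it gave 4 higher and 6 lower. Together these were 15.4% of them, against 14.2% of all sites chosen in the same way. Both sites of Gm13340 were at 0% in muscle and at 29% and 19.9% in heart, and Gm13340 has no entry under that name in the gene table used.

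Neighbours tested together were mostly called at neither site, from 48 of 68 in muscle against small intestine to 82 of 94 in heart against small intestine. Where both were called, the number in opposite directions was 0 in each of the 6 comparisons. Since members of a run share reads, this is a description of runs and not of independent sites. Runs with a called site were 16 of 55 tested in muscle against small intestine and 12 of 53 in muscle against liver. Of all single sites 40% and 30.7% were called there. Muscle against heart had 11 of 68 runs (15.5% of all sites). Heart against liver had 16 of 65 runs (22.2%) and heart against small intestine 13 of 64 (29.3%). Liver against small intestine had 12 of 60 (10.4%). A run was counted if any of its members was called, so runs and single sites are not on the same scale.

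The comparison of heart with lung and with spleen was added after the values were seen. Heart was higher than lung at 29 of 87 clustered sites and lower at 1, against 33.8% and 1.07% of all sites. Heart was higher than spleen at 33 of 83 and lower at 4, against 34.3% and 1.47% of all. Calls in either direction made up 34.5% of clustered and 34.8% of all sites against lung, and 44.6% and 35.8% against spleen. With no minimum difference they were 73.6% and 55.0% against lung, and 73.5% and 53.0% against spleen. Among the called clustered sites, 15 of 30 had 0 unconverted reads in lung and 21 of 37 in spleen. The share among all called sites was not computed, and of all covered sites 33.7% in lung and 39.4% in spleen had none. A level of 0% in the second tissue also makes a call more likely, so these counts set no trait of clustered sites apart. The sites lower in heart than in spleen were both sites of Tpm3 and both of Chd8, a chromatin remodeller, which had 21.7% of 23 and 16.2% of 37 reads in spleen and none in heart.

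The authors' deposited calls of m5C sites were compared next. In the table that the authors deposited, 176 of 303 clustered sites (58.1%) were called in at least 1 tissue, against 71.2% of sites not clustered. Of covered clustered sites the authors' deposited call was given at 100 in heart, or 44.4%, where 52.6% of all covered sites had it, and at 43 in muscle, or 25.7%, against 53.1% of all. Liver and small intestine went the other way, with 81, or 46.3%, against 31.6% of all, and 41, or 24.3%, against 17.8%. Lung had 10, or 10.9%, against 11.1%, and spleen 8, or 9.09%, against 9.68%. The lowest coverage at a deposited call was 20 reads and the lowest level 10%. All members were called in 66 runs, some in 13 and none in 42. At covered clustered sites of 10% or more, the authors' call was given at 100 of 124 in heart (90.6% of all such sites), 43 of 67 in muscle (86.5%), while liver had it at 81 of 95 (87%), small intestine at 41 of 64 (75.3%), lung at 10 of 10 (81.9%) and spleen at 8 of 8 (80.7%). In heart, muscle, liver and small intestine the share (80.6%, 64.2%, 85.3% and 64.1%) was lower than over all sites, and in lung and spleen no clustered site at 10% was left uncalled. No source used here gives the authors' rule for a call.

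In all, 31 clustered sites reached 10% in some tissue and were called in none, of 303, against 69 of the 2178 sites not clustered. They include the runs of Ppp6r1, Mypn, a sarcomere protein, Tapbp and Tbcc, 2 of 3 sites of Tcirg1, and Neurl1a, a ubiquitin ligase, at 21.9% of 3169 and 29.4% of 3194 reads in muscle. The Ryr1 run, in the calcium release channel of skeletal muscle, was another, with 19.3% of 5888 and 17.4% of 6521 reads in muscle. No run lay in a gene of the m5C machinery list, which held the NSUN enzymes, the DNA methyltransferases, the TET enzymes, Trdmt1, Alyref, Ybx1 and Alkbh1.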

How the data were processed

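The submitters' processing notes name build mm10 and HISAT2 2.10, SAMtools, Trimmomatic, cutadapt and bcl2fastq; the choice of sites and the merging of libraries are not described in any source used here. Per the file headers, each tissue has a coverage (a count of reads, deposited from 10 upward), a fraction of unconverted reads, a site call (other) and a p-value. The deposited p-values were not used. The deposited counts times the deposited fractions lay within 0.000179 of whole numbers and gave the unconverted reads.

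Sites needed 20 reads in a tissue. Tissues were compared by Fisher's exact test (SciPy 1.17.1) over all sites off MT and Y, adjusted by the Benjamini-Hochberg method; calls needed an adjusted p under 0.05 and 10 points. With 1 column set per tissue, the planned fit on libraries could not be made. The scripts were tested on simulated reads. Reads may include PCR copies, so intervals (95% Wilson) cover counting alone.

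Members and lists were chosen with earlier results of these data known. Named runs followed a rule: runs of 4 or more sites, the 10 most covered runs of 3, the 8 highest, the 3 largest called each way per comparison, the 6 most unequal neighbours, the 10 best covered in 6 tissues, and Caprin1, Tbcc and Tm9sf3. Gm10012, Hcfc1, Rock1, Inip, Ass1, Eif4a1, Chd8, Neurl1a, Ryr1, Hdlbp, Mup-ps21 and the second Mknk2 run were chosen after their values were seen, and Mettl13, Pomgnt1 and Ube2e2 for their sequence. The neighbour test and the comparisons of heart with lung and spleen were added after the data were seen. A planned check of RNA folding, gene parts and sequence for all runs needed a genome and was not made. Sequences are from RefSeq, GRCm38.p6. A few items are not reported here.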

Additional observations from a re-analysis of the deposited data

How the results depend on the processing

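Of 83 recomputed values, 66 stayed within 1.5 times a count, or within the counting interval of a median or share, and 17 moved. By these limits the median levels, the shares without unconverted reads and the neighbour difference did not move at minimums of 10 or 50 reads. Nor did the medians at gaps of 5 or 20 nt. The interval for a median was that of 1 site at the median coverage, which is wide, so this check was weak. At 10 and 50 reads the muscle median was 7.14% and 8.64%, and the spleen share without unconverted reads 66.0% and 50.9%. The lung and spleen medians were 0% throughout. Clustered sites numbered 231 at a gap of 5 nt and 333 at 20 nt. With no minimum difference the called clustered sites, with their share and that of all sites, were 48 in muscle against heart (30.2% and 37.9%, where all calls went from 252 to 618), 47 in muscle against liver (38.2% and 51.6%), 49 in muscle against small intestine (39.8% and 57.3%), 46 in heart against liver (28.8% and 45.0%), 49 in heart against small intestine (31% and 51.8%), 44 in liver against small intestine (29.5% and 31.1%), 64 in heart against lung (73.6% and 55.0%) and 61 in heart against spleen (73.5% and 53.0%). Called neighbours within 10 nt rose to 76. On sites that the authors called in a tissue outside the 2 compared, they were 10 of 65 in muscle against heart (15.4% and 14.2%), 14 of 57 in muscle against liver (24.6% and 33.0%), 16 of 58 in heart against liver (27.6% and 26.8%), 10 of 81 in heart against small intestine (12.3% and 33.7%), 11 of 68 in liver against small intestine (16.2% and 9.49%), 17 of 36 in heart against lung (47.2% and 39.7%) and 23 of 39 in heart against spleen (59.0% and 41.0%); fewer sites were tested there. At 50 reads heart against spleen gave 22 of 53 (41.5% and 43.0%). No paired analysis was possible because the table has 1 column set per tissue, and no library could be left out for the same reason. Lung and spleen had 92 and 88 covered clustered sites, against 167 to 225 in the other tissues, which limits what can be seen there.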
